A study of Homo sapiens with 8 samples.

Results

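The genes described here are 39 lysosome and autophagy genes, taken by symbol from a table of 20263 genes. All 39 symbols were found, once each. They comprise 12 genes of lysosomal hydrolases and their activators, 6 genes of the lysosome membrane, 8 genes of the proton pump and 13 genes of autophagy and its control. They were measured by RNA sequencing in MHCC-97H, a human hepatocellular carcinoma line, kept for 24 hours in DMSO (the drug's solvent, 4 libraries) or in lenvatinib at 40, 60, 80 and 100 µM (1 library per dose). Lenvatinib is an inhibitor of receptor tyrosine kinases, mainly of the VEGF and FGF receptors, that is given in liver cancer. The cells carry no named alteration that differs between the arms, and all came from this single line grown in serum-containing medium. Nothing in the labels says that the DMSO libraries came from separate cultures, so the p-values measure the spread between these libraries only, which may be technical.

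Lysosomes are acidic organelles in which hydrolases break down proteins, lipids and sugars. A rotary proton pump, the V-ATPase, acidifies them by coupling a membrane-bound V0 sector to a peripheral V1 sector. Autophagy delivers cytoplasm to lysosomes in double-membraned vesicles that carry lipid-bound proteins of the LC3 and GABARAP families. Many of these genes are transcribed by TFEB and TFE3, basic helix-loop-helix factors that are held in the cytoplasm while mTORC1 is active at the lysosome and enter the nucleus when nutrients are scarce or lysosomes are damaged. In liver cancer cells these pathways are known for degrading cell components under starvation and drug exposure.

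TFEB and TFE3 recognise an E-box with the core CACGTG, and the promoters of several members hold it close to the start of transcription. Promoter sequences, from 250 bases before to 50 bases after each annotated start, were taken from RefSeq (GRCh38.p14) and matched by symbol for 29 members. CTSB, HEXA, PSAP, LAMP2, ATP6V0E1, ATP6V1A, ATP6V1B2, ATP6V1C1, ATP6V1H and UVRAG were not matched. The windows below are shown because they carry this E-box and can be set against the levels of the same genes under lenvatinib. Capitals mark CACGTG, which reads the same on both strands, and each sequence runs 5′ to 3′ along the gene's strand.
GAA, distal: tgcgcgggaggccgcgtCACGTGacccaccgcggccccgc
GAA, proximal: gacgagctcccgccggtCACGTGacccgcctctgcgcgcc
MCOLN1: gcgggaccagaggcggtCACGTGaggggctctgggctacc
CTSD: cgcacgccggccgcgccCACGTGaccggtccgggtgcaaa
CTSA: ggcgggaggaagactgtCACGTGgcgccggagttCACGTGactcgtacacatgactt
NEU1: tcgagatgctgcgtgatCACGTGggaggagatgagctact
ATP6V0D1: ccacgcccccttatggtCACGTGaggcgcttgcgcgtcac
LAMP1: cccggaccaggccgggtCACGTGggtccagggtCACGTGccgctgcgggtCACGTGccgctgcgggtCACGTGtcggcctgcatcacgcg

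The GAA windows lie at chr17:80101488-80101527 and chr17:80101533-80101572 on the plus strand. The MCOLN1 window lies at chr19:7522566-7522605 (plus), CTSD at chr11:1763952-1763991 (minus), CTSA at chr20:45891276-45891332 (plus) and NEU1 at chr6:31862925-31862964 (minus). The ATP6V0D1 window lies at chr16:67481194-67481233 (minus) and the LAMP1 window at chr13:113297030-113297119 (plus). The LAMP1 promoter held 6 copies of the E-box in all, the GAA, MCOLN1 and CTSA promoters 2 each, and CD63 held 1 in 1 of its 8 annotated promoters. CACGTG was thus present in 8 of 29 members (27.6%), against 13.1% of 9228 tested genes with a promoter in the same table. TCACGTG, searched on both strands and containing the core, was in 7 of 29 members (24.1%), against 7.48% of those genes. The second MCOLN1 copy and 2 of the LAMP1 copies lie nearer the start than the windows shown. By role, the core was in 4 of 9 hydrolase genes, 3 of 5 membrane genes, 1 of 3 pump genes and 0 of 12 autophagy genes. A match is a stretch of letters in this window and does not show binding.

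The libraries held 10181973 (60 µM) to 37384578 (80 µM) counts, and genes with a read numbered 11076 at 60 µM and 13290 to 14340 elsewhere. Expression is given as CPM, counts scaled to library depth by TMM (a trimmed mean that corrects for composition), unless TPM, which also divides by transcript length, is named. Libraries differed along the GC content of genes, which is described by a GC slope. This is the amount by which a gene's log2 level in that library, relative to all 8, rises for each 10 percentage points of its GC content. It was 0.28, -0.50, -0.99 and -0.10 in DMSO 1 to 4 and 0.67, 1.82, -0.58 and -0.60 at 40, 60, 80 and 100 µM. With 1 library per dose, a technical difference along GC content and a response to lenvatinib along it cannot be told apart. The arms were therefore compared with edgeR both without a covariate and with this slope as a covariate, and called genes are those with an adjusted p under 0.05 over all 11827 genes tested. All 39 members passed the expression filter, a mean of 1 CPM. Markers of several cell types were also read. Of 5 epithelial markers only KRT8 and KRT18 reached a mean of 1 CPM (here scaled to library totals only). That list summed to 6669 to 12290 CPM in DMSO and 4724 to 10130 CPM under lenvatinib. Of 6 fibroblast markers COL1A1, PDGFRB and DCN reached that mean. Their list summed to 67.35 to 100.4 CPM in DMSO and 42.53 to 87.86 CPM under lenvatinib. Of 5 endothelial markers VWF alone reached it, with list sums of 1.665 to 3.003 CPM in DMSO and 0 to 3.291 CPM under lenvatinib. Of 8 hepatocyte markers HNF4A alone reached a mean of 1 CPM, and APOB and TTR had 0 reads. The hepatocyte list summed to 7.645 to 11.82 CPM in DMSO and 1.525 to 3.929 CPM under lenvatinib. ALB, AFP, APOA1, TF, KRT19 and the leukocyte marker LYZ had 2 to 10 reads each, all of them in the 60 µM library. HNF4A itself was lower with lenvatinib in the GC-adjusted fit (log2 fold change -2.42 ± 0.40, edgeR adjusted p = 0.0229).

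On a per-length scale the members spanned a wide range in untreated cells. By the median deposited TPM of the DMSO libraries, PSAP (1118 TPM), the precursor of the saposins that activate sphingolipid hydrolases, came first. CD63 (809 TPM), a tetraspanin of late endosomes, and SQSTM1 (699 TPM), the p62 receptor that brings ubiquitinated cargo to autophagosomes, followed, and the DMSO ranges of these neighbours overlapped. SQSTM1 did not overlap the next gene, LAMP1 (343 TPM), an abundant glycoprotein of the lysosome membrane, and from LAMP1 downwards the range of each gene overlapped that of the next. UVRAG (5.05 TPM), ATG5 (7.16 TPM), WIPI1 (7.43 TPM) and CD68 (7.93 TPM) were lowest. TFE3 (59.2 TPM) stood above TFEB (27.2 TPM), and their DMSO ranges, 56.3 to 60.8 and 23.3 to 28.9 TPM, did not overlap.

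**Figure D1:**
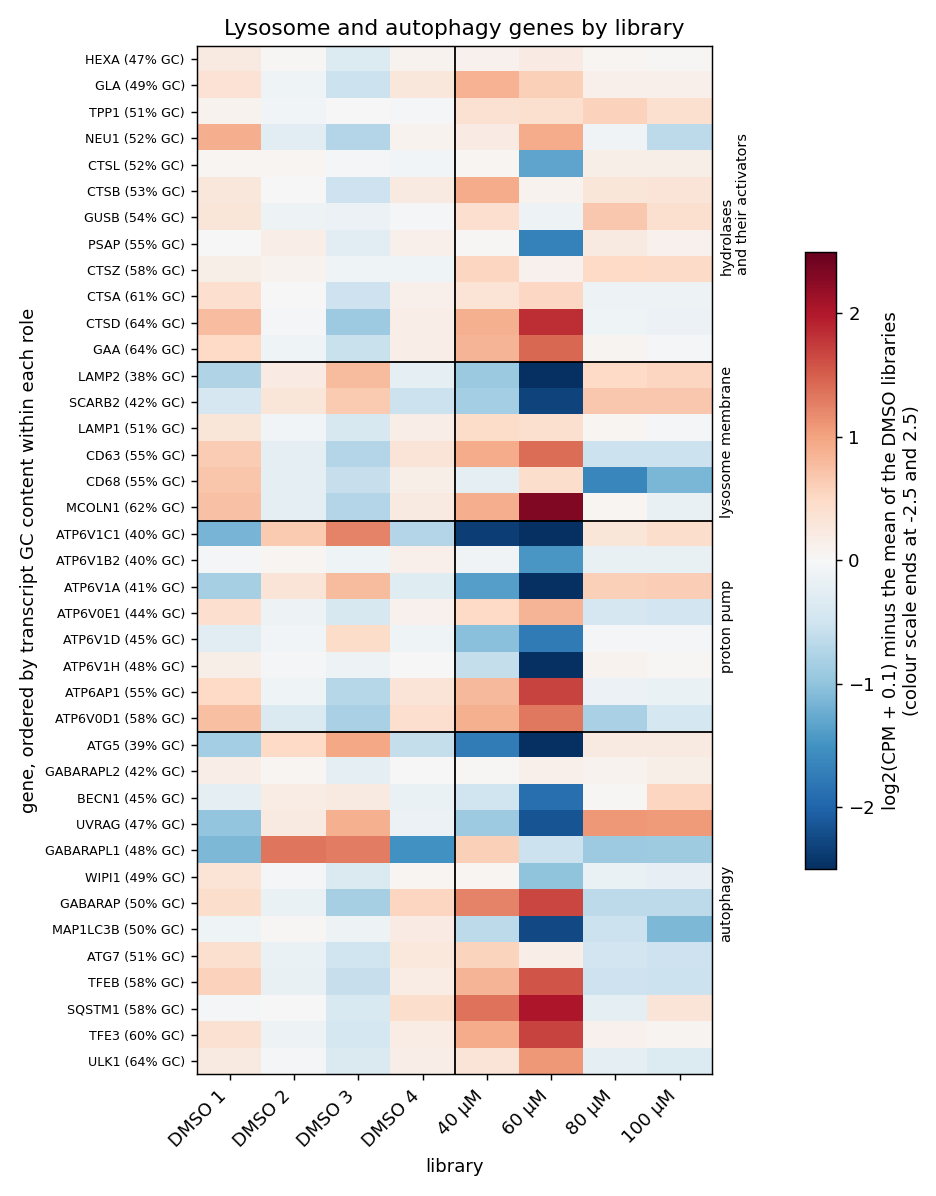
Each cell shows log2(CPM + 0.1) of a gene in a library minus the mean of the 4 DMSO libraries, with genes grouped by role and ordered by the GC content of their longest transcript. The 60 µM column is blue for low-GC genes such as ATP6V1A, LAMP2 and ATG5 and red for high-GC genes such as MCOLN1, CTSD and TFE3, and DMSO 3 shows the opposite colours.

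Few of these genes were called in the main fits. Over the alternatives run, the GC-adjusted fit called 0 to 13 of 39 members and 0% to 23.3% of all genes. The number of changed genes is therefore not settled. Without the covariate, 0 of 39 members were called in the comparison of 4 lenvatinib with 4 DMSO libraries, as were 0 of all genes tested (0%; lowest edgeR adjusted p = 0.874). At an unadjusted p under 0.05 there were 523 genes, of which MAP1LC3B was the only member. DESeq2 called 59 genes higher and 35 lower, none of them a member, and limma-voom called 0. With the GC covariate edgeR called 386 genes (3.26%), 175 higher (1.48%) and 211 lower (1.78%), among them 1 of 39 members, CD68, which was lower. There, 8 members had an unadjusted p under 0.05, TPP1, CTSZ, GUSB, TFE3 and UVRAG higher and CD68, MAP1LC3B and ATP6V0E1 lower. These 8 were 20.5% of the members, next to 2405 of all genes (20.3%). Over all genes the median log2 fold change was -0.11 without and -0.06 with the covariate, and over the members 0.15 and 0.01.

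The covariate changed the standard errors as well as the estimates. The median standard error of the members' log2 fold changes was 0.44 without the covariate and 0.16 with it. The GC slope was computed from these same libraries and entered as a known value with a linear effect. Intervals with the covariate therefore leave out the error of the slope itself. The 95% interval lay within a 2-fold change in either direction for 9 of 39 members without the covariate and for 34 of 39 with it. The other 5 were CD68, MAP1LC3B, UVRAG, ATP6V1H and GABARAPL1. For 14 members the sign of the estimate differed between the fits.

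**Figure D2:**
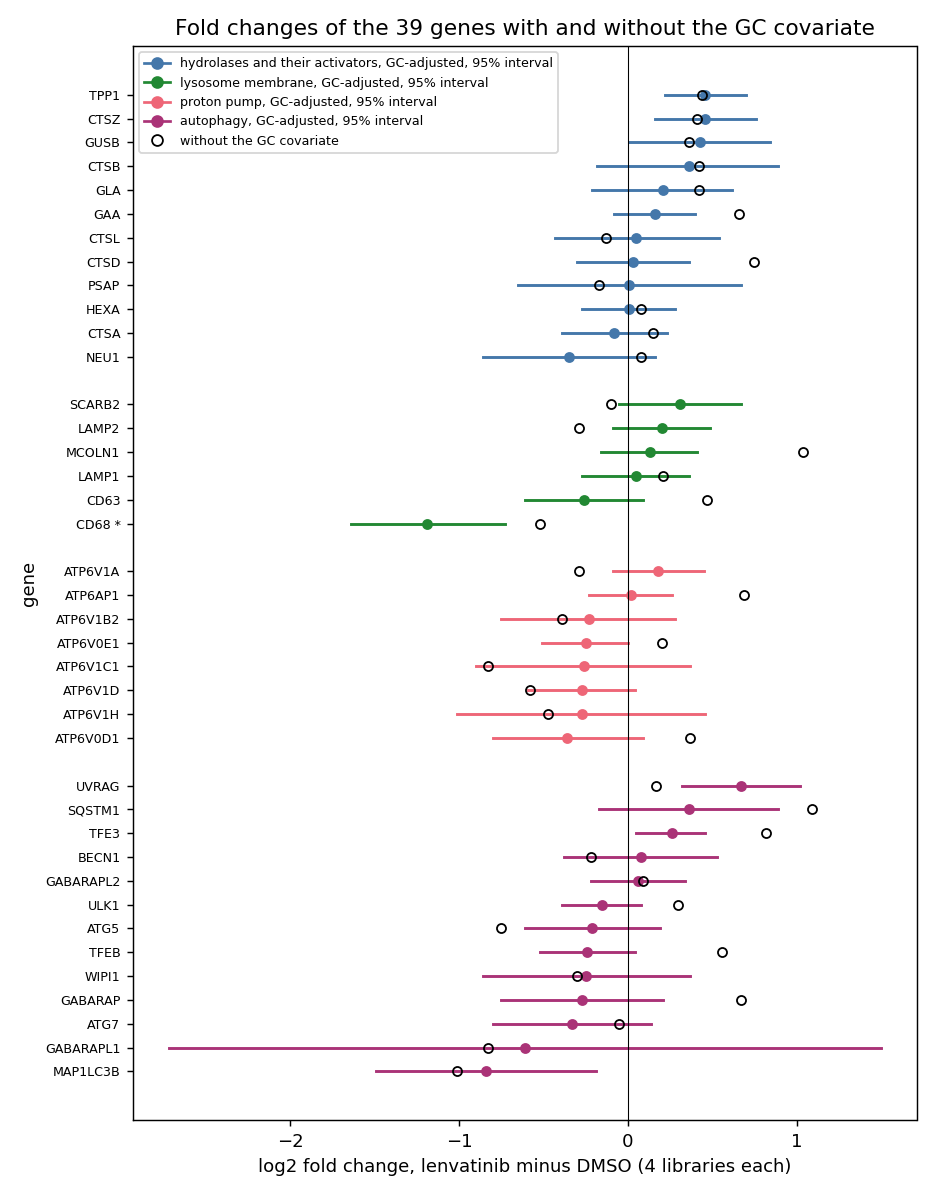
Filled points and bars are GC-adjusted log2 fold changes (lenvatinib minus DMSO, 4 libraries each) with 95% intervals, hollow points the values without the covariate, and the asterisk marks the adjusted p under 0.05 of CD68. Most bars cross 0, and MCOLN1, CTSD, SQSTM1 and TFE3 have hollow points far to the right of their filled ones.

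Of the 12 genes of hydrolases and their activators, 0 were called in either main fit. Their median log2 fold change was 0.39 without the covariate, with 10 of 12 above 0, and 0.11 with it, again with 10 of 12 above 0, against medians of -0.11 and -0.06 over all genes. TPP1 (ENSG00000166340, GRCh38 chromosome 11, 6612763 to 6619461, minus strand), a peptidase that removes tripeptides and is lost in a childhood neuronal lipofuscinosis, was measured at 67.2, 60.6, 63.9 and 61.1 CPM across the DMSO libraries and at 82.3, 83.6, 94.8 and 83.3 CPM at 40, 60, 80 and 100 µM. All 4 lenvatinib libraries thus lay above all 4 DMSO libraries, which held for 3.08% of the genes tested (6.46% on either side). The log2 fold change was 0.44 ± 0.21 (SE; edgeR adjusted p = 0.874) without and 0.46 ± 0.11 (adjusted p = 0.0551) with the covariate. On the deposited TPM scale the arms overlapped, with 26.1, 35.0, 47.6 and 28.6 TPM in DMSO 1 to 4 and 28.7, 22.7, 62.3 and 53.0 TPM with lenvatinib in order of dose.

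CTSZ, a carboxypeptidase of the cathepsin family, was measured at 275, 264, 231 and 231 CPM across the DMSO libraries and at 364, 269, 352 and 346 CPM under lenvatinib in order of dose. Only the 60 µM library lay within the DMSO range. The GC-adjusted log2 fold change was 0.46 ± 0.13 (SE; edgeR adjusted p = 0.104). PSAP was measured at 1298, 1469, 1089 and 1441 CPM across the DMSO libraries and at 1339, 405, 1535 and 1418 CPM under lenvatinib. Its lenvatinib libraries lay inside or close to the DMSO range except at 60 µM, which was far below it.

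The hydrolase genes with the E-box followed the libraries' GC slopes. CTSD, the aspartic protease cathepsin D, stood at 403, 228, 125 and 264 CPM across the DMSO libraries and at 436, 846, 218 and 213 CPM under lenvatinib in order of dose. The 60 µM library was 3.32 times the DMSO mean, yet 80 and 100 µM lay close to DMSO 2, which had a similar GC slope. Reads of CTSD are uncertain in that AC068580.4 overlaps it on the same strand, with 10724 reads over the 8 libraries against 68624. GAA, which digests lysosomal glycogen, was 2.61 times the DMSO mean at 60 µM. On the deposited TPM scale GAA stood at 95.2, 93.2, 84.3 and 91.1 TPM in DMSO 1 to 4 and at 108.6, 128.2, 119.4 and 109.9 TPM in order of dose, without overlap. With the covariate the log2 fold changes were 0.03 for CTSD (95% interval -0.30 to 0.36), 0.16 for GAA (-0.08 to 0.40), -0.08 for the carboxypeptidase CTSA (-0.39 to 0.23) and -0.35 for the sialidase NEU1 (-0.86 to 0.16). Across all 8 members with the E-box the GC-adjusted values ran from -0.36 (ATP6V0D1) to 0.16 (GAA), and none was called in this main fit. With only the 80 and 100 µM libraries GAA was called higher (0.27, edgeR adjusted p = 0.0202), among 20.7% of all genes called. Without the 60 µM library CD63 was called lower (-0.20, edgeR adjusted p = 0.0340), among 23.3%.

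The other hydrolase genes were GLA, which removes galactose from glycolipids, GUSB, a glucuronidase, HEXA, a subunit of hexosaminidase, and the cathepsins CTSB and CTSL. HEXA had a GC-adjusted log2 fold change of 0.01 (95% interval -0.27 to 0.28). GUSB (0.43, interval 0.01 to 0.84) and CTSB (0.36, interval -0.18 to 0.89) had estimates above 0. Both genes lay above the DMSO range at 40, 80 and 100 µM and inside it at 60 µM. CTSB was highest at 40 µM (325 CPM), and its 213 and 216 CPM at 80 and 100 µM were close to DMSO 1 (210 CPM).

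Among the 6 genes of the lysosome membrane 1, CD68, was called lower, in the GC-adjusted fit only. That fit called 1.78% of all genes lower. CD68 (ENSG00000129226, GRCh38 chromosome 17, 7579467 to 7582113, plus strand) is a heavily glycosylated protein related to the LAMPs and best known as a macrophage marker. It was measured at 12.6, 6.54, 5.21 and 8.59 CPM across the DMSO libraries and at 6.58, 10.6, 2.46 and 3.46 CPM at 40, 60, 80 and 100 µM (means 8.25 ± 3.24 and 5.78 ± 3.67, SD, n = 4 libraries each). The 80 and 100 µM libraries lay below every DMSO library, while 40 and 60 µM lay within the DMSO range. The log2 fold change was -0.52 ± 0.57 (SE; edgeR adjusted p = 0.874) without the covariate and -1.19 ± 0.20 (adjusted p = 0.0240) with it.

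CD68 rose with the GC slope by 0.83 ± 0.12 (SE) on the log2 scale per unit. With that term of the fit taken out, its levels were 10.8, 8.71, 9.19 and 9.08 CPM across the DMSO libraries and 4.49, 3.75, 3.43 and 4.89 CPM under lenvatinib in order of dose, so that the arms did not overlap. These values come from the same fit and add no support to its p. On the deposited TPM scale the arms did not overlap either, at 9.40, 8.16, 7.21 and 7.69 TPM in DMSO and 4.40, 5.63, 3.90 and 4.12 TPM with lenvatinib, as for 8.84% of the genes tested on either side and 4% below. The call was lost without DMSO 1 (log2 fold change -1.08, edgeR adjusted p = 0.116), DMSO 2 (-1.22, 0.0752), DMSO 4 (-1.19, 0.109), 80 µM (-1.04, 0.194) or 100 µM (-1.36, 0.116), and over all alternatives run the estimate lay between -1.36 and -0.83, the latter with limma on log2(TPM + 1). Of 10 macrophage and leukocyte markers, PTPRC, CD163 and AIF1 had 0 reads, and the summed level of the list was 2.002 to 3.652 CPM (scaled to library totals) in DMSO and 0.6875 to 1.122 CPM under lenvatinib. Without CSF1R the other 9 markers summed to 0.3917 to 0.6991 CPM in DMSO and 0.1995 to 0.8922 CPM under lenvatinib, ranges that overlap. The only marker of the list that was tested, CSF1R, the receptor for macrophage colony-stimulating factor, stood at 3.51, 2.11, 0.984 and 2.08 CPM across the DMSO libraries and 0.641, 0, 0.209 and 0.181 CPM under lenvatinib in order of dose, where the 0 allows up to 3 counts. It was also called with the covariate (log2 fold change -3.12 ± 0.58, edgeR adjusted p = 0.0319). The part of these markers in the CD68 result was not tested. In bulk RNA, fewer cells expressing CD68 and less CD68 RNA per cell cannot be told apart.

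**Figure D3:**
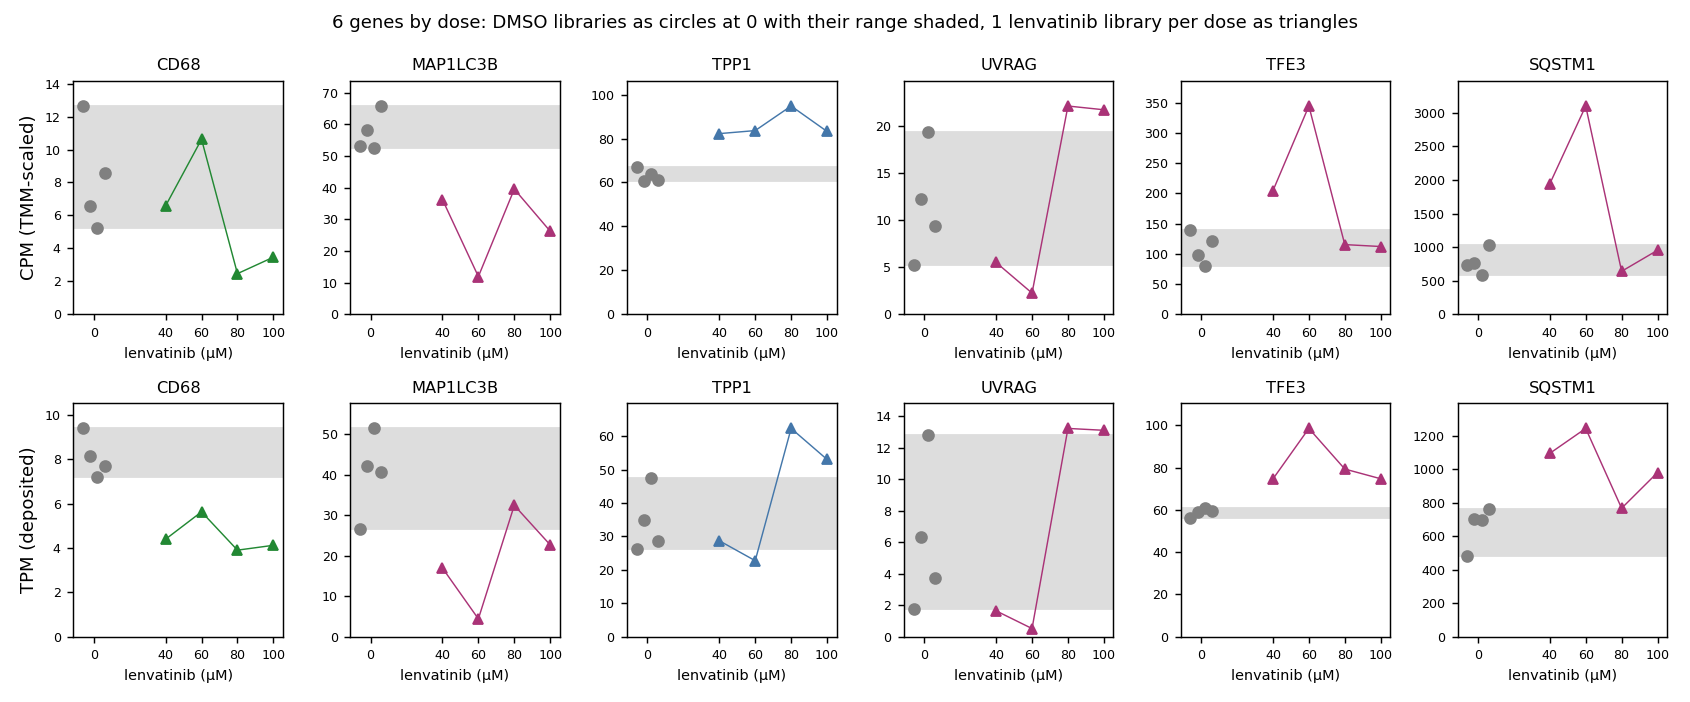
The upper panels show TMM-scaled CPM and the lower panels deposited TPM for 6 genes against the lenvatinib dose, with the 4 DMSO libraries as circles at 0 and their range shaded. On the TPM scale CD68 lies below and TFE3 and SQSTM1 above the shaded range at every dose, whereas MAP1LC3B and TPP1 leave it at every dose on the CPM scale only.

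LAMP1 and CD63, the most abundant membrane genes on the per-length scale, were not called. LAMP1 was measured at 599, 469, 370 and 548 CPM across the DMSO libraries and at 673, 646, 505 and 474 CPM under lenvatinib, with 80 and 100 µM inside the DMSO range. Its GC-adjusted log2 fold change was 0.05 (95% interval -0.27 to 0.36). CD63 was measured at 644.7, 353.2, 251.4 and 518.6 CPM across the DMSO libraries and at 788, 1088, 288 and 287 CPM under lenvatinib, above the DMSO range at 40 and 60 µM and inside it at 80 and 100 µM (GC-adjusted log2 fold change -0.26, interval -0.61 to 0.09).

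The remaining membrane genes moved with the GC slope in opposite directions. MCOLN1, the calcium channel mucolipin 1, whose transcripts contain 62.0% GC, was measured at 68.3, 35.4, 25.0 and 48.2 CPM across the DMSO libraries and at 77.7, 207, 42.7 and 36.3 CPM under lenvatinib. Its level at 60 µM was 4.68 times the DMSO mean, whereas 80 and 100 µM lay within the DMSO range, and its GC-adjusted log2 fold change was 0.13 (95% interval -0.16 to 0.41). Its reads are uncertain in that PNPLA6 overlaps it on the same strand, with 112100 reads over the 8 libraries against 12563 for MCOLN1. LAMP2 (37.7% GC), which serves chaperone-mediated autophagy, and SCARB2 (42.2% GC), the receptor that carries glucocerebrosidase to lysosomes, were 0.125 and 0.188 times the DMSO mean at 60 µM. With the covariate their log2 fold changes were 0.20 (interval -0.09 to 0.49) and 0.31 (-0.05 to 0.67).

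None of the 8 proton pump genes was called in either fit. Their median log2 fold change was -0.34 without and -0.26 with the covariate, with 3 and 2 of 8 above 0. In unadjusted CPM the pump genes lay on both sides of the DMSO range in the 60 µM library, the 1 with the steepest GC slope. All 5 genes of the peripheral V1 sector (ATP6V1A, ATP6V1B2, ATP6V1C1, ATP6V1D and ATP6V1H) lay below the DMSO range there. The V0 genes ATP6V0D1 and ATP6V0E1 and the accessory subunit gene ATP6AP1 lay above it. These 5 of 8 below and 3 of 8 above are near the shares of all genes at 60 µM, 52.7% below and 34.8% above. A difference between the sectors was not tested. With the GC term of the fit taken out, the sectors did not separate at 60 µM. ATP6V0D1 (98.06 CPM) and ATP6V0E1 (99.94 CPM) then lay below the DMSO range, as did ATP6V1B2, ATP6V1C1, ATP6V1D and ATP6V1H. ATP6V1A (33.56 CPM) lay above it and ATP6AP1 (244.2 CPM) inside it. These adjusted values come from the fit to the same libraries. The V1 genes contained 39.7 to 48.0% GC in their longest transcripts, ATP6V0E1 44.1%, ATP6AP1 55.0% and ATP6V0D1 58.1%. ATP6V1D, with 6126 reads over the 8 libraries, is overlapped on the other strand by MPP5 (14634 reads) and EIF2S1 (16611 reads), so its reads are uncertain. In unadjusted CPM the split by sector was not present at 80 and 100 µM. There ATP6V1B2 and ATP6V0E1 lay below the DMSO range, and the other 6 did not lie outside it on one side in both libraries.

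ATP6V1C1, which joins the pump's stator to its motor and is regulated when V1 and V0 come apart, varied most among the pump genes. It was measured at 7.06, 24.9, 37.9 and 9.51 CPM across the DMSO libraries and at 3.03, 0, 19.7 and 21.7 CPM under lenvatinib in order of dose. The 0 at 60 µM allows up to 3 counts in that library, against 195 to 1581 reads in the DMSO libraries. Within DMSO alone the highest library was 5.37 times the lowest. Its GC-adjusted log2 fold change was -0.26 (95% interval -0.90 to 0.37).

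The V0 genes that were most abundant per length were close to each other in pattern. ATP6V0D1, a subunit of the V0 sector that contacts V1, was measured at 216, 99.8, 73.1 and 172 CPM across the DMSO libraries and at 239, 320, 73.2 and 94.6 CPM under lenvatinib. ATP6V0E1, a small membrane subunit of the V0 sector, was measured at 152, 105, 87.1 and 122 CPM across the DMSO libraries and at 163, 207, 85.7 and 82.2 CPM under lenvatinib. Both were highest at 60 µM and low at 80 and 100 µM, as in DMSO 3. With the covariate the log2 difference between arms for ATP6V0E1 was -0.25 ± 0.11 (SE; adjusted p = 0.244 by edgeR).

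**Figure D4:**
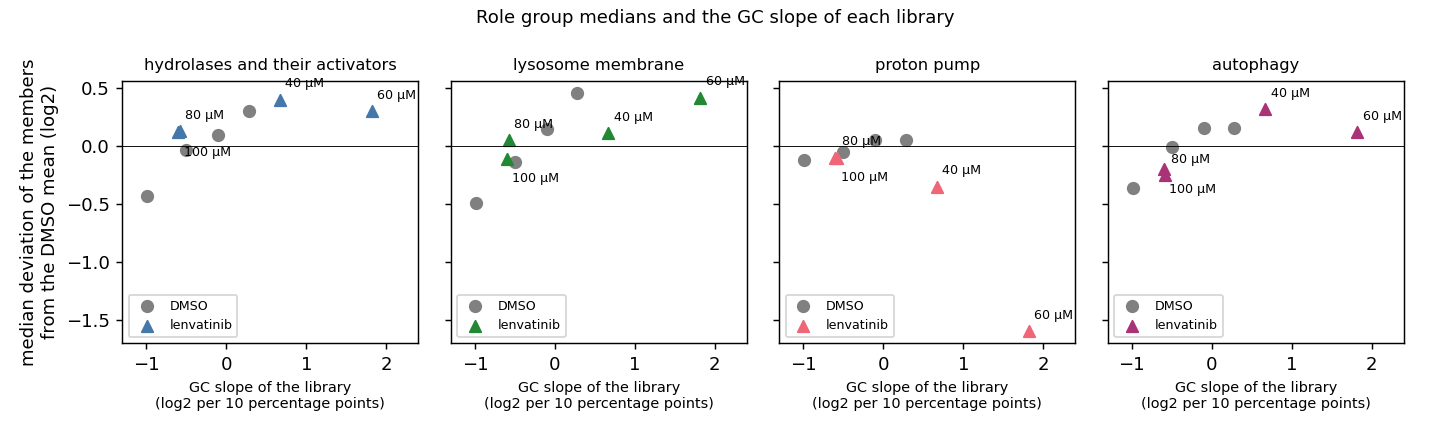
Each panel plots the median log2 deviation of a role group from the DMSO mean against the GC slope of the library, with DMSO as circles and lenvatinib as triangles. Hydrolase, membrane and autophagy medians lie higher in libraries with a higher GC slope among the DMSO libraries, and the proton pump median falls to -1.60 at 60 µM.

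Across the 39 members the change per unit of GC slope ran from -2.34 ± 0.23 (SE; ATP6V1C1) to 1.05 ± 0.13 (GABARAP) on the log2 scale. It followed the GC content of the transcripts, with Pearson r = 0.736 over the 39 members and 0.777 over 11823 genes. The slopes were themselves computed from gene GC content, so a positive r is built in, and it is given as a description only. GABARAP is an exception in that its coefficient was the highest although its longest transcript contained 49.8% GC, near the median of 49.1% of the tested genes. Reads of GABARAP are uncertain in that AC120057.2 overlaps it on the same strand, with 5308 reads over the 8 libraries against 30231.

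Of the 13 genes of autophagy and its control, 0 were called in either fit, with a median log2 fold change of 0.09 (7 of 13 above 0) without and -0.21 (5 of 13 above 0) with the covariate. MAP1LC3B (ENSG00000140941, GRCh38 chromosome 16, 87391800 to 87404779, plus strand) encodes LC3B, which is bound to lipid on autophagosomes. It was measured at 53.2, 58.2, 52.5 and 65.7 CPM across the DMSO libraries and at 36.2, 11.9, 39.5 and 26.2 CPM at 40, 60, 80 and 100 µM (means 57.4 ± 6.10 and 28.5 ± 12.4, SD, n = 4 libraries each). All 4 lenvatinib libraries lay below all 4 DMSO libraries, which held for 3.38% of the genes tested. The log2 fold change was -1.01 ± 0.37 (SE; edgeR adjusted p = 0.874) without and -0.84 ± 0.29 (adjusted p = 0.151) with the covariate. On the TPM scale the arms overlapped, at 26.7, 42.0, 51.4 and 40.7 TPM in DMSO and 16.9, 4.38, 32.4 and 22.6 TPM with lenvatinib. Reads of MAP1LC3B are uncertain in that FBXO31 overlaps it on the other strand, with 11423 reads over the 8 libraries against 11912, and strandedness is not given. MAP1LC3B2, a near-identical copy that could share reads, had 153 reads in all.

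The other genes of the ATG8 family, whose proteins are bound to lipid like LC3B, were not called either. GABARAP was measured at 149, 98.0, 61.9 and 160 CPM across the DMSO libraries and at 258, 348, 70.1 and 69.9 CPM under lenvatinib, above the DMSO range at 40 and 60 µM and inside it at the higher doses. GABARAPL2 stayed within 36.2 to 47.3 CPM in all 8 libraries, with a GC-adjusted log2 fold change of 0.06 (95% interval -0.22 to 0.34). GABARAPL1 was measured at 10.9, 61.2, 58.6 and 8.38 CPM across the DMSO libraries and at 36.24, 16.41, 12.72 and 12.99 CPM under lenvatinib. Its DMSO libraries fell into a low pair (1 and 4) and a high pair (2 and 3), and the 7.30-fold range was the widest of the 39 members in DMSO. The 95% interval of its GC-adjusted log2 fold change ran from -2.72 to 1.5, so the direction of any change was not settled. The difference of MAP1LC3B from these genes was not tested.

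The transcription factors were described by library as well, TFE3 having been chosen after its values were seen. TFE3 was measured at 140, 98.5, 79.5 and 122 CPM across the DMSO libraries and at 204, 345, 115 and 112 CPM under lenvatinib. Its log2 fold change was 0.82 ± 0.42 (SE; edgeR adjusted p = 0.874) without and 0.26 ± 0.09 (adjusted p = 0.157) with the covariate. With the GC term taken out its levels were 123, 124, 126 and 127 CPM across the DMSO libraries and 151, 149, 150 and 148 CPM under lenvatinib, values that come from the fit to these same libraries and add no support to it. On the TPM scale they were 56.3, 59.0, 60.8 and 59.4 in DMSO and 74.6, 98.5, 79.3 and 74.7 with lenvatinib, with no overlap. TFEB had a GC-adjusted log2 fold change of -0.24 (95% interval -0.52 to 0.04).

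SQSTM1, which NRF2 also transcribes, was measured at 739, 757, 586 and 1031 CPM across the DMSO libraries and at 1943, 3103, 640 and 954 CPM under lenvatinib in order of dose. The 40 and 60 µM libraries lay above the DMSO range, the latter at 3.99 times the DMSO mean, and 80 and 100 µM lay within the DMSO range. With the covariate its log2 fold change was 0.36 (95% interval -0.17 to 0.89; edgeR adjusted p = 0.426), against 1.09 without it. On the TPM scale all 4 lenvatinib libraries, at 1095, 1244, 767 and 981 TPM, lay above the DMSO libraries, at 483, 703, 695 and 761 TPM. In all, 3 of 39 members (SQSTM1, TFE3 and GAA) lay above all DMSO libraries in every lenvatinib library on the TPM scale, against 4.84% of all genes.

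UVRAG (ENSG00000198382, GRCh38 chromosome 11, 75815167 to 76143195, plus strand), a partner of beclin 1 in the lipid kinase complex that matures autophagosomes, was measured at 5.21, 12.2, 19.4 and 9.37 CPM across the DMSO libraries and at 5.51, 2.25, 22.2 and 21.8 CPM under lenvatinib in order of dose. The 80 and 100 µM libraries lay above the DMSO range, the 40 µM library inside it and the 60 µM library below it. The log2 fold change was 0.17 ± 0.74 (SE; edgeR adjusted p = 0.934) without and 0.67 ± 0.15 (adjusted p = 0.0557) with the covariate.

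The initiation and conjugation genes showed no called change. ULK1, the kinase that starts autophagosome formation under mTORC1 control, had a GC-adjusted log2 fold change of -0.15 (95% interval -0.39 to 0.08). That of ATG7, the enzyme that activates ATG8 proteins for lipid binding, was -0.33 (-0.80 to 0.14). ATG5, part of the conjugating complex, had 4 reads at 60 µM, against 162 to 875 in the DMSO libraries, and a GC-adjusted log2 fold change of -0.21 (-0.61 to 0.19). BECN1, beclin 1 itself, was at 0.08 (-0.38 to 0.53), and WIPI1, which binds the phospholipid made by that complex, at -0.25 (-0.86 to 0.37). Genes on the other strand overlap 4 of these and make their reads uncertain. PSME3 held 48282 reads against 4285 for BECN1, and ARSG 4975 against 1535 for WIPI1. VGLL4 held 10778 reads against 11572 for ATG7, and PRDM1 2258 against 3046 for ATG5.

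The 80 and 100 µM libraries were alike and lay close in GC slope to DMSO 2, which allows them to be set beside it without a covariate. The log2 difference of their mean from DMSO 2 was largest for GABARAPL1 (-2.25), followed by CD68 (-1.14), UVRAG (0.84), MAP1LC3B (-0.82), GUSB (0.67) and TPP1 (0.55). DMSO 2 is a single library, so these differences have no replicate check, and DMSO 1 and 4 had GABARAPL1 levels below those at 80 and 100 µM. Both high-dose libraries lay above all DMSO libraries for CTSB, CTSL, CTSZ, GUSB, TPP1, SCARB2 and UVRAG and below for CD68, ATP6V0E1, ATP6V1B2 and MAP1LC3B. That is 7 and 4 of 39 members, against 9.9% and 11.4% of all genes.

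Without the 60 µM library, the shallowest and the one with the steepest GC slope, the GC-adjusted fit called 13 of 39 members among 2770 of 11864 genes (23.3%; 9.63% higher and 13.7% lower). GLA, CTSB, CTSZ, TPP1, GUSB, LAMP2, UVRAG and TFE3 were higher there, and CD68, CD63, ATP6V0E1, ATG7 and MAP1LC3B lower. The largest sizes were those of CD68 (log2 fold change -1.14 ± 0.17, edgeR adjusted p = 0.00253), MAP1LC3B (-0.76 ± 0.15, adjusted p = 0.00962) and UVRAG (0.67 ± 0.12, adjusted p = 0.00543). Fitting only the 80 and 100 µM libraries against DMSO called 12 members, 9 higher and 3 lower, with 20.7% of all genes called (9.67% higher and 11% lower). Of the 9 higher, 6 were hydrolase genes, 1 a pump gene and 2 autophagy genes. The 3 lower were 1 membrane, 1 pump and 1 autophagy gene. A difference between roles was not tested. With all libraries, DESeq2 called 9 members in the GC-adjusted comparison, 6 higher and 3 lower, among 17.2% of all genes (6.75% and 10.5%). Scaling by library totals only, edgeR called 5, 4 higher and 1 lower, among 5.35% of all genes, where the split of all calls turned to 3.29% higher and 2.06% lower. Conversely, without the 80 µM library 0 members and 0 genes were called (1305 genes at an unadjusted p under 0.05).

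No member showed a called trend with dose. The slope within the lenvatinib arm, in log2 units per 20 µM, ran from -0.83 ± 0.31 (SE; GABARAP) to 1.20 ± 0.68 (ATP6V1C1), with 0 of 39 members and 0 of all genes called (0%; lowest edgeR adjusted p = 0.295). At an unadjusted p under 0.05 there were 875 genes, with GABARAP the only member. With the GC slope as a further covariate the range ran from -0.98 (GABARAPL1) to 0.11, again with 0 called (0%), and 287 genes but no member had an unadjusted p under 0.05. DESeq2 called 113 genes higher and 18 lower with dose, and no member.

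The pathway beyond these 39 genes was examined with lists of other genes. Over all genes tested the GC-adjusted fit called 1.48% higher and 1.78% lower, with a median log2 fold change of -0.06. Of 30 tested other hydrolase genes, it called 1 higher and 0 lower, with a median log2 fold change of 0.24. The called gene was ARSA, arylsulfatase A, which removes sulfate from sulfatides, at 36.0, 22.9, 15.0 and 30.7 CPM across the DMSO libraries and 62.8, 121, 37.5 and 35.6 CPM under lenvatinib (log2 fold change 0.68 ± 0.12, edgeR adjusted p = 0.0304). Of 25 other membrane and sorting genes, 3 were called higher and 0 lower (median 0.10). They were HGSNAT, the enzyme that acetylates heparan sulfate across the lysosome membrane, ABCA2, a lipid transporter, and GNPTG, a subunit of the enzyme that marks hydrolases with mannose 6-phosphate. HGSNAT was measured at 53.1, 46.9, 53.1 and 53.6 CPM across the DMSO libraries and 90.7, 63.2, 90.7 and 81.0 CPM under lenvatinib, without overlap (0.72 ± 0.13, edgeR adjusted p = 0.0311). ABCA2 did not overlap either (0.65 ± 0.13, edgeR adjusted p = 0.0371), and GNPTG did (0.64 ± 0.13, adjusted p = 0.0444). Over all genes tested, 3.08% had every lenvatinib library above every DMSO library. These 4 calls are likewise lost without the 80 µM library, where no gene was called.

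None of 11 other pump genes, 42 other autophagy genes or 21 regulators of TFEB and mTORC1 at the lysosome was called in either fit. Over all genes 0% were called without and 3.26% with the covariate. The GC-adjusted medians of these lists were -0.04, -0.07 and -0.05. SESN2, an inhibitor of mTORC1 induced by stress, differed between the arms by 0.53 ± 0.16 on the GC-adjusted log2 scale (SE; adjusted p = 0.117 by edgeR), MITF, a factor of the TFEB family, -0.32 ± 0.17 (adjusted p = 0.318), and FLCN, which controls that family through the Rag GTPases, -0.19 ± 0.14 (adjusted p = 0.483). No library held a read of RRAGD, a Rag GTPase (a count of 0 allows up to 3 counts per library), and LAMP3 had 8 reads in all.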

How the data were processed

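For each gene and each of 8 libraries, per the file headers, the authors give a count, a TPM and an FPKM value. GRCh38 is the build and FastQC, HISAT2, StringTie and bedtools are the tools in the submitters' processing notes. Tool versions, annotation release and strand setting were not given in the sources used here. All main tests used the deposited counts, which are whole numbers. The TPM deposited by the authors, a constant multiple of the deposited FPKM within each library, was used for levels between genes and as an alternative; FPKM was not used further.

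Genes whose mean reached 1 CPM were tested with edgeR 4.0.16 (R 4.3.3; TMM, robust quasi-likelihood, Benjamini-Hochberg). Standard errors are the log2 fold change divided by the square root of F, and 95% intervals use the total degrees of freedom of the fit. GC content is that of the longest GENCODE v29 transcript, matched by Ensembl identifier; GC slopes are those of log2 CPM, as deviations from the mean of all libraries. Doses count as spread within the lenvatinib arm. Tested on simulated data with a GC trend, the fit without the covariate missed the changed genes, large changes included. Its lack of calls therefore does not show a lack of change. The GC-adjusted fit recovered most of the largest changes and few of the smallest. The simulated trend had the linear form that the covariate models. Its advantage there was thus built in and does not test the covariate on the real libraries. Total counts range over the libraries as given in the results, and limits from a count of 0 (3 counts) cover counting error only.

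Members, lists, fits and alternatives were chosen with earlier results of these data known. Given by library are members called in the comparison of the arms, with or without the GC slope, or in the dose slope, members whose arms do not overlap in CPM, and the 2 highest and the lowest by TPM in each role. GABARAPL1, MCOLN1, CTSD, GAA and TFE3 were added after their values were seen. Alternatives were DESeq2 1.42.0, limma-voom (limma 3.58.1), other scalings, filters and covariates, a block on the title number, and leaving out each library. Fits with only the 80 and 100 µM libraries and limma on log2(TPM + 1) were added after seeing the data.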

Additional observations from a re-analysis of the deposited data

Results flagged for a closer look

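For 4 of 78 combinations of a member and an arm, 1 library stood apart from the other 3 of its arm by more than Dixon's 95% limit, which chance passes in about 1 in 20 groups. All 4 lay in the lenvatinib arm, where the libraries also differ in dose. CTSL was low at 60 µM, at 42.5 CPM against 109 CPM in the nearest library. ATP6V1B2 was low at 60 µM as well, at 25.9 CPM against 62.2 CPM. TPP1 was high at 80 µM, at 94.8 CPM against 83.6 CPM. GABARAPL1 was high at 40 µM, at 36.2 CPM against 16.4 CPM, although DMSO 2 and 3 were higher still.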

How the results depend on the processing

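In the comparison without the covariate and in the dose slope, 0 members were called under every alternative run, in the former also with the replicate block. With the GC covariate the count of 1 reported above became 9 with DESeq2, 3 with limma-voom, 4 with DESeq2 size factors within edgeR, 5 with scaling by library totals only, 2 with the filter at 5 CPM, 2 with the first component of the DMSO libraries as covariate, 4 with limma on log2(TPM + 1) and 12 with only the 80 and 100 µM libraries. With the replicate block and the GC covariate it was 0, and leaving out each library in turn gave 0 to 13 (0% to 23.3% of all genes). Over all genes the calls were 3.26% as reported, 17.2% with DESeq2, 7.02% with limma-voom, 8.43% with DESeq2 size factors, 5.35% with library totals only, 4.76% at 5 CPM, 3.87% with the DMSO component, 4.31% with limma on TPM, 20.7% with only 80 and 100 µM and 1.96% with the block. The CD68 call was lost with the block (log2 fold change -1.15, edgeR adjusted p = 0.0746). The cause of the changes was not tested, apart from the libraries that some settings leave out. Title numbers gave no clear pairing of the libraries. Deviations of same-numbered libraries from their arm means, not adjusted for GC, correlated between -0.608 and 0.843. No DMSO library correlated best with the lenvatinib library of its own number. As the libraries differ along GC content, these correlations cannot decide whether the numbers are pairs.

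The median log2 fold change of the proton pump genes moved by more than its spread in DMSO (0.08). Without the covariate it was -0.34, with -0.57 to -0.09 when leaving out each library, -0.10 with only 80 and 100 µM, -0.56 with the replicate block and -0.67 on the TPM scale. With the covariate it was -0.26, with -0.33 to -0.15 when leaving out each library, -0.15 with library totals only and on the TPM scale, and -0.14 with only 80 and 100 µM and with the replicate block. The autophagy median without the covariate, 0.09, became -0.17 with only 80 and 100 µM and -0.18 on the TPM scale. No called member changed sign. Over all members and alternatives, the sign differed from that reported in 60 of 663 values without and 30 of 702 with the covariate, none of them called.

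Depth limits the 60 µM library most, where 3 counts correspond to 0.295 CPM, against 0.0802 to 0.0997 CPM in the others.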
